A study of Mus musculus with 24 samples.

Results

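The 7 genes described here carry out antigen presentation by MHC class II: Ciita, Cd74, H2-Aa, H2-Ab1, H2-Eb1, H2-DMa and H2-DMb1. They were taken by symbol from a table of 43346 genes, each symbol matched 1 gene, and all 7 passed the filter on low counts. Cortical RNA came from 24 mice, each with a library of its own, and 6 mice made up each of 4 groups. The groups were control mice without stimulus (aged 55 to 57 days), control mice given LPS (54 to 56 days), mice labelled Abca7 without stimulus (55 to 58 days) and mice labelled Abca7 given LPS (54 to 56 days). LPS, lipopolysaccharide of the bacterial outer membrane, was injected, and the design text calls the mice labelled Abca7 heterozygous for that gene. No source used here gives the kind of allele, the strain, the LPS dose and route, or the time from injection to collection. The tissue is whole cortex, so fewer cells of a type and less RNA per cell cannot be told apart.

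MHC class II molecules display peptides from the endosome to CD4+ T cells. An alpha and a beta chain (H2-Aa with H2-Ab1 in the I-A molecule, H2-Eb1 as the beta chain of I-E) pair in the endoplasmic reticulum with the invariant chain, Cd74, which blocks the groove and carries the complex to the endosome. Proteases of the endosome trim Cd74 to a short remnant, which the H2-DM dimer (H2-DMa and H2-DMb1) exchanges for an antigen peptide. Ciita, induced by interferon gamma through Irf1, is the coactivator that a complex of RFX, NF-Y and CREB proteins recruits to class II promoters. Nlrc5 has the same role at class I promoters. In the brain, class II is known mainly from border macrophages, dendritic cells and activated microglia.

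On mm10, H2-DMa (chr17:34135182-34139101), H2-DMb1 (chr17:34153072-34160230), H2-Ab1 (chr17:34263209-34269418), H2-Aa (chr17:34282744-34287827) and H2-Eb1 (chr17:34305877-34316199) lie within the MHC. Ciita lies on another chromosome, at chr16:10488178-10527564. The stretches below precede the RefSeq starts of the members H2-Aa and H2-Eb1 and of their relative H2-Ob, with B2m, the light chain of class I, for comparison. They are shown for the letters known from the recognition of such promoters, of which these windows hold some and lack others. Capitals mark, on either strand, ATTGG (the letters of the Y box, bound by NF-Y), AACNNNTGATG (letters within the X box, bound by RFX), TGACG (bound by CREB proteins) and GAAANNGAAA (an interferon response element).
H2-Aa: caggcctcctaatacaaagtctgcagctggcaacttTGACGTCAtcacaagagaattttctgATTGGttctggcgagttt
H2-Eb1: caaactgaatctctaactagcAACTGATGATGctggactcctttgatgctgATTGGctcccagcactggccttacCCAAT
H2-Ob: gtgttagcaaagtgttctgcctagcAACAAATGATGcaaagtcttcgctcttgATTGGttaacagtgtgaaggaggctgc
B2m: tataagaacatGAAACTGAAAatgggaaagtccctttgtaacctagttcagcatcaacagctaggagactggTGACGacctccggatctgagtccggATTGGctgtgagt

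In GRCm38.p6 coordinates these stretches are chr17:34287854-34287933 on the minus strand for H2-Aa, chr17:34305757-34305836 for H2-Eb1, chr17:34238795-34238874 for H2-Ob and chr2:122147537-122147646 for B2m, the last 3 on the plus strand. Counted from the RefSeq start, ATTGG began at -48 in H2-Aa, at -59 and, on the other strand, at -35 in H2-Eb1, at -57 in H2-Ob and at -53 in B2m. It also stood at -61 in H2-DMb1, at -90 in H2-DMb2 and at -43 in H2-Oa. AACNNNTGATG was not found in the windows of H2-Aa, H2-Oa or B2m, and TGACG was not found in those of H2-Eb1, H2-DMb1, H2-DMb2, H2-Oa or H2-Ob. The H2-Aa stretch holds TGACG on both strands, overlapping as TGACGTCA. All motifs were searched on both strands of the 250 bases before each start. Of 32851 such windows, 33.8% held ATTGG, 17.8% held TGACG, 2.98% held GAAANNGAAA and 0.539% held AACNNNTGATG. The X box letters followed within 40 bases by ATTGG were found in 10 windows (0.0304%), and 4 of these belong to H2-Eb1, H2-DMb1, H2-DMb2 and H2-Ob. GAAANNGAAA was found in the B2m window at -139 and not in those of H2-Aa, H2-Eb1, H2-DMb1, H2-DMb2, H2-Oa or H2-Ob. These matches describe letters only, and a missing match does not show that the element is absent. The table has no window for Ciita, Cd74 or H2-Ab1, and its windows for H2-DMa lie at other starts, 9664 and 12350 bases before the deposited one.

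Library totals ran from 48149131 to 75741388 counts. Abca7 itself did not check the genotype label: its level was 28.6 ± 2.22 CPM (read counts scaled to a common total with TMM factors; mean ± SD, n = 6 in each group) in control mice without LPS and 24.5 ± 2.66 with it, against 32.1 ± 2.07 and 29.4 ± 2.30 in mice labelled Abca7. The libraries labelled Abca7 were thus not lower in that gene, and each genotype comparison below is one between labels. Ttr, a choroid plexus gene, stood at 4.94 to 19.7 CPM in 5 control libraries without LPS and at 261 CPM in the other one, against 165 to 485 CPM in control mice given LPS. In mice labelled Abca7 it ranged from 48.02 to 449 CPM without LPS and from 24.3 to 381 CPM with it.

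Per kilobase of the deposited gene length, the members were ordered as follows in control mice without LPS. H2-DMa led with 4.35 ± 0.25 CPM per kilobase, followed by Cd74 with 1.81 ± 0.20, H2-Eb1 with 0.93 ± 0.11 and Ciita with 0.69 ± 0.046. The last 3, H2-DMb1 (0.53 ± 0.11), H2-Ab1 (0.53 ± 0.15) and H2-Aa (0.52 ± 0.14), did not differ from each other beyond their spread, and the range of Ciita overlapped theirs. H2-DMa shares 360 exon bases with Brd2, an abundant gene on the opposite strand. With the strand setting unknown, reads there cannot be told apart, so the place of H2-DMa in this order is uncertain. On the same scale B2m stood at 52.5 ± 1.69 and H2-K1, a class I heavy chain, at 5.58 ± 0.76. The class II chains thus rested on few reads: H2-Aa had 30 to 84 counts per library, H2-Ab1 16 to 88, H2-Eb1 36 to 132 and H2-DMb1 22 to 71. Cd74 had 112 to 317, Ciita 144 to 278 and H2-DMa 323 to 561.

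**Figure D1:**
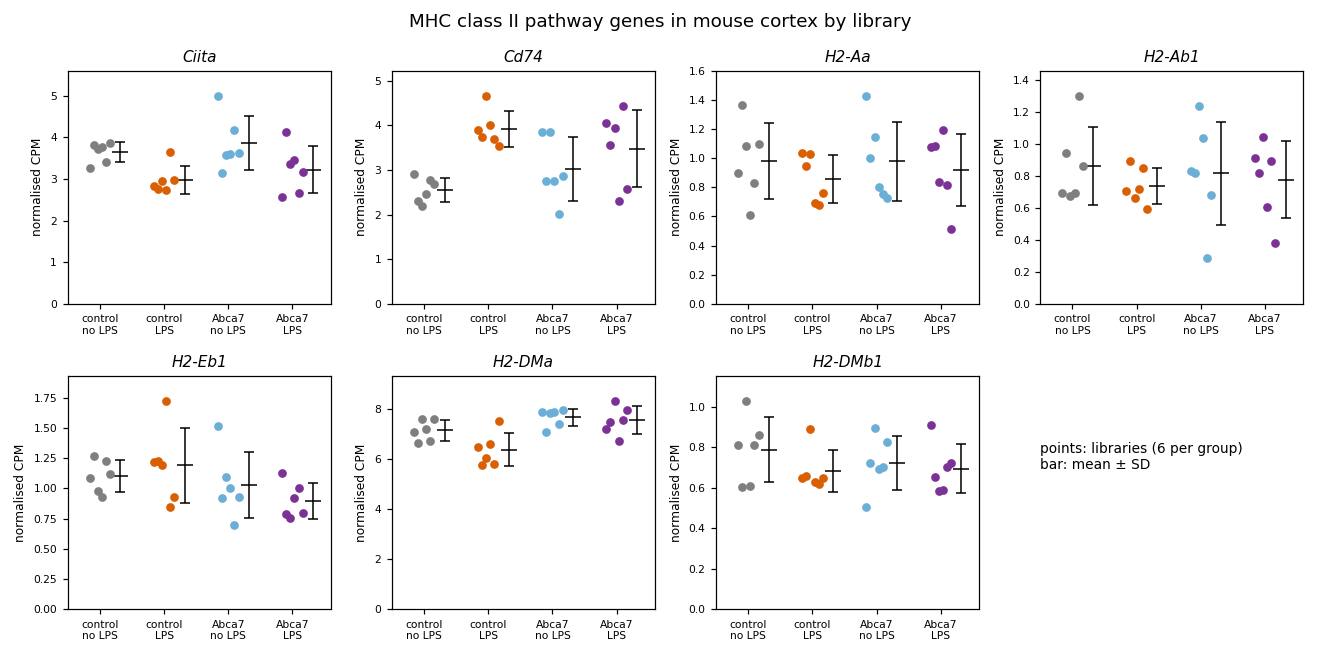
Normalised CPM of the 7 class II pathway genes (y axis, from 0) in each of 24 libraries, by genotype label and stimulus (x axis), with mean ± SD to the right of the points. For Cd74 the 6 control libraries with LPS (3.55 to 4.67 CPM) all lie above the 6 without (2.18 to 2.91 CPM); for the other members the groups overlap.

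The comparison of LPS with no stimulus in control mice found 1 of the 7 members changed, Cd74, which rose. Across all 21891 genes tested, 17.3% were called in this comparison (edgeR quasi-likelihood F test, adjusted p under 0.05), so the members' share was near that of all genes. The genes for the class II chains, for the peptide exchange factor H2-DM and for the regulator Ciita were not called. None of the 7 was called in mice labelled Abca7, where 11.8% of all genes were. At an unadjusted p under 0.05 the count was 1 there and 3 in control mice, against 5141 and 6364 of the 21891 genes tested. The median log2 fold change of the members was -0.19 in control mice and -0.072 in mice labelled Abca7, beside 0.0051 and 0.0052 over all genes.

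Ciita, the regulator, had in control mice without LPS a lowest, median and highest level of 3.27, 3.74 and 3.86 CPM. With LPS the values were 2.73, 2.89 and 3.64 CPM. Of the 6 control libraries with LPS, 5 lay below the lowest one without, and the remaining library, at 3.64 CPM, lay inside the unstimulated range. The log2 fold change was -0.29 (SE 0.11; adjusted p = 0.0791). Mice labelled Abca7 had levels of 3.15, 3.62 and 5.003 CPM without LPS and 2.56, 3.27 and 4.13 CPM with it, with wide overlap and a log2 fold change of -0.26 (SE 0.11; adjusted p = 0.157). Ciita was thus not called in either genotype label, and both estimates were below 0. In control mice its call appeared, with a lower level under LPS, when LPS replicate 5 was left out (-0.35, adjusted p = 0.0336), when Abca7 replicate 1 without LPS was left out (0.0492) or when only the groups compared were fitted (0.0328). It appeared in mice labelled Abca7 without LPS replicate 2 (-0.34, adjusted p = 0.0455). Ciita shares 329 of its 9535 exon bases in GENCODE M21 with Dexi on the opposite strand. No source used here says whether counting used strand, so these reads cannot be told apart; Dexi had log2 fold changes of -0.046 and -0.070, neither called.

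Cd74, the invariant chain (chr18:60803848-60812646 on mm10), had a lowest, median and highest level of 2.18, 2.57 and 2.91 CPM in control mice without LPS. With LPS these were 3.55, 3.82 and 4.67 CPM, so the groups did not overlap, as was the case for 9.06% of all genes in this comparison. The rise was 1.54-fold (log2 fold change 0.62, SE 0.15, 95% interval 0.31 to 0.93, adjusted p = 0.00355). Levels in mice labelled Abca7 were 2.01, 2.81 and 3.86 CPM without LPS and 2.30, 3.75 and 4.44 CPM with it. These groups overlapped, as did those of the other 6 members (5.73% of all genes did not overlap there), and Cd74 had a log2 fold change of 0.21 (SE 0.15; adjusted p = 0.433). The difference between the LPS effects, tested as an interaction, was -0.41 (SE 0.21, 95% interval -0.84 to 0.025; unadjusted p = 0.0638, adjusted p = 0.99995). A difference in the Cd74 response between the genotype labels was therefore not shown.

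The Cd74 call in control mice held when each of the 24 libraries was left out in turn, with adjusted p of at most 0.0128. It ended with the Ttr level as a covariate (0.50, adjusted p = 0.207) and with surrogate variables (0.29, adjusted p = 0.241). In control mice Ttr stood at 4.94 to 19.7 CPM in 5 libraries without LPS and at 165 to 485 CPM with it. Ttr level and LPS thus nearly coincided in control mice. The fit with the Ttr covariate took 1 slope over all 24 libraries. It therefore separates Ttr from LPS in part, resting also on mice labelled Abca7, and within control mice that separation is limited. The control library without LPS that had 261 CPM of Ttr had 2.91 CPM of Cd74, the highest in its group and below all 6 with LPS. This is 1 library, and whether choroid plexus content accounts for the Cd74 rise was not tested. Within ages, the mean Cd74 level of control mice was 2.72 CPM without and 3.73 CPM with LPS at 55 days (2 libraries each), and 2.47 and 3.81 CPM at 56 days (3 each).

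**Figure D2:**
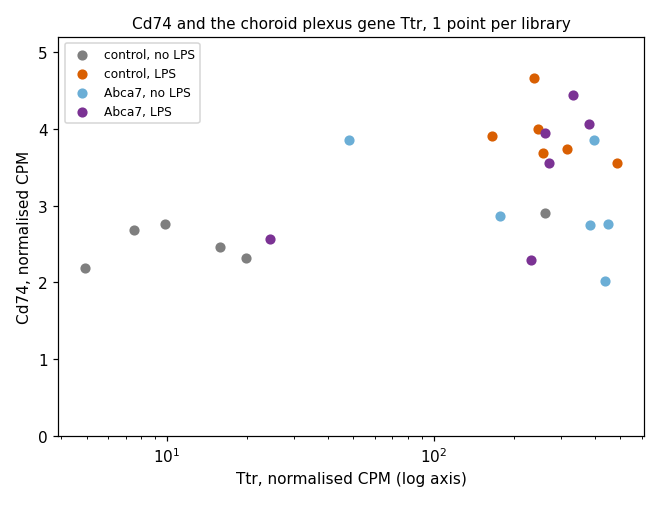
Normalised CPM of Cd74 (y axis) against that of the choroid plexus gene Ttr (x axis, log scale), 1 point per library, coloured by group. In control mice without LPS 5 libraries lie at 4.94 to 19.7 CPM of Ttr and 1 at 261 CPM, and all 6 are below 3 CPM of Cd74.

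None of the 3 class II chains was called in either genotype label. H2-Aa, the alpha chain of I-A, had 0.61, 0.99 and 1.37 CPM (lowest, median and highest) without LPS in control mice and 0.68, 0.85 and 1.04 CPM with it. H2-Ab1, its beta chain, had 0.67, 0.78 and 1.30 CPM without and 0.59, 0.71 and 0.89 CPM with LPS. H2-Eb1 had 0.93, 1.104 and 1.27 CPM without and 0.85, 1.21 and 1.73 CPM with LPS. For each chain the ranges with and without LPS overlapped, and none was called. The log2 fold changes were -0.19 for H2-Aa (95% interval -0.62 to 0.23), -0.23 for H2-Ab1 (-0.74 to 0.28) and 0.12 for H2-Eb1 (-0.23 to 0.47). None of these intervals reaches the 0.62 estimated for Cd74, whose own interval, given above, overlaps that of H2-Eb1. The change of Cd74 was not tested against that of a chain.

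H2-Aa had in mice labelled Abca7 0.73, 0.90 and 1.43 CPM without LPS and 0.52, 0.96 and 1.20 CPM with it. H2-Ab1 had 0.29, 0.83 and 1.24 CPM without and 0.38, 0.85 and 1.04 CPM with LPS. H2-Eb1 had 0.70, 0.97 and 1.52 CPM without and 0.75, 0.86 and 1.13 CPM with LPS. The groups overlapped for all 3 chains, with log2 fold changes of -0.072 (SE 0.21), -0.072 (SE 0.25) and -0.18 (SE 0.17). Cd74 stood above the mean log2 level of these chains by 1.38 ± 0.28 in control mice without LPS and by 2.09 ± 0.16 with it; in mice labelled Abca7 the distances were 1.68 ± 0.14 and 1.97 ± 0.33 (SD, n = 6 each). These distances are on the scale of log2 CPM and take no account of gene length.

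H2-DMa, the alpha chain of the peptide exchange factor, had 6.65, 7.14 and 7.59 CPM without LPS in control mice and 5.76, 6.25 and 7.51 CPM with it. Of the 6 LPS libraries 5 lay below the lowest unstimulated one. Its log2 fold change was -0.17 (SE 0.065; adjusted p = 0.0830), and without control LPS replicate 6, the highest of its group, it was called as lower (-0.22, adjusted p = 0.0141). The levels in mice labelled Abca7 were 7.06, 7.84 and 7.95 CPM without and 6.73, 7.52 and 8.32 CPM with LPS, with a log2 fold change of -0.022 (SE 0.065). H2-DMa shares 360 of its 3448 exon bases in GENCODE M21 with Brd2 on the opposite strand, an abundant gene (171 ± 9.12 CPM in control mice without LPS) with log2 fold changes of 0.064 and 0.053, neither called. As for Ciita and Dexi, these reads cannot be told apart.

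H2-DMb1, the beta chain, had 0.60, 0.81 and 1.03 CPM without LPS and 0.62, 0.65 and 0.89 CPM with it in control mice, with a log2 fold change of -0.21 (SE 0.16; adjusted p = 0.429). Mice labelled Abca7 had 0.51, 0.71 and 0.90 CPM without and 0.58, 0.68 and 0.91 CPM with LPS, a log2 fold change of -0.059 (SE 0.16). The groups overlapped in both. Of the 50-base sequences of H2-DMb1, 22.7% also occur in H2-DMb2, so reads could be divided between this pair. With both genes summed as 1 feature, a setting chosen after seeing the data, the log2 fold change in control mice was -0.23 (adjusted p = 0.222).

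Between genotype labels none of the 7 members was called. Without LPS 7 genes of all (0.032%) were called, and under LPS 0 (0%), as for the interaction (0%). At an unadjusted p under 0.05 the members numbered 0 without LPS, 2 under LPS and 0 for the interaction, against 1426, 1748 and 745 of all genes. DESeq2 called 31, 37 and 0 of all genes, limma-voom 6, 1 and 0, and neither called a member. The 2 members under LPS were H2-DMa, at 6.25 CPM in control mice and 7.52 CPM in mice labelled Abca7 (medians; log2 difference 0.24, SE 0.065, unadjusted p = 0.000876, adjusted p = 0.279 with edgeR and 0.0630 with DESeq2), and H2-Eb1, at 1.21 and 0.86 CPM (-0.41, SE 0.17, adjusted p = 0.543). For H2-DMa 3 of the 6 libraries labelled Abca7 lay above all 6 control libraries. Cd74 differed by 0.23 (SE 0.15) without LPS and by -0.17 (SE 0.15) under it, Abca7 over control, with adjusted p of 0.891 and 0.808.

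Among the relatives of the members, H2-Oa and H2-Ob, which form the inhibitor of H2-DM in B cells, and H2-DMb2, the second DM beta chain, were tested and not called in either genotype label (0 of 3 at an unadjusted p under 0.05). H2-Ob had 0.20, 0.32 and 0.62 CPM without LPS and 0.17, 0.20 and 0.39 CPM with it in control mice, a log2 fold change of -0.63 (SE 0.34; adjusted p = 0.218). H2-Eb2 held 26 counts over all 24 libraries and H2-Ea-ps 0, which allows up to 3 counts, and neither passed the filter. The symbols H2-Ea and H2-Ea-ps1 were not analysed here.

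Of the 7 genes for the DNA-binding complex that recruits Ciita (Rfx5, Rfxap, Rfxank, Nfya, Nfyb, Nfyc and Creb1), 0 were called by edgeR in either genotype label, and 1 had an unadjusted p under 0.05 in each. That gene was Rfx5, the DNA-binding subunit of RFX, with log2 fold changes of 0.16 (SE 0.062; adjusted p = 0.0878) and 0.16 (SE 0.062; adjusted p = 0.102). Rfx5 was called as higher under some alternatives: in control mice with age as a factor (0.18), with surrogate variables (0.17) and without unstimulated replicate 1 (0.19), and in mice labelled Abca7 with the Ttr level (0.18) and without control replicate 6 without LPS (0.16). Nfya was called with surrogate variables (0.17 and 0.19).

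Upstream of Ciita, 5 of the 9 tested genes of the route from interferon gamma rose in control mice and 4 in mice labelled Abca7, where 9.39% and 6.65% of all genes were called as higher. Irf1, the factor that acts on the interferon-responsive promoter of Ciita, rose 5.47-fold in control mice (from 3.82 ± 0.35 to 20.98 ± 3.38 CPM, adjusted p = 2.26e-10) and 4.10-fold in mice labelled Abca7 (adjusted p = 8.92e-09). Socs1, the feedback inhibitor, rose by 1.61 and 1.24 on the log2 scale, and Irf2, the partner of Irf1, by 0.21 and 0.27. The kinase Jak1 was called in control mice and not in mice labelled Abca7 (0.15, adjusted p = 0.0123, against 0.094 with adjusted p = 0.154), and the interaction was not called for any gene. Its call appeared in mice labelled Abca7 with age as a factor (0.15, adjusted p = 0.0214) and with the border macrophage level (0.15, adjusted p = 0.0389). The receptor genes Ifngr1 and Ifngr2 were not called. Ifngr2 was called as higher in mice labelled Abca7 without their unstimulated replicate 3 (adjusted p = 0.0128), their LPS replicate 4 (0.0293) or control LPS replicate 1 (0.0414). The kinase Jak2 was called as higher in both labels with surrogate variables (0.13 and 0.14). Ifng itself held 6 counts over the 24 libraries and did not pass the filter. Irf1 thus rose in both genotype labels, and Ciita was called in neither. Of 6 libraries with LPS in each label, those with a Ciita level below the lowest unstimulated one numbered 5 in control mice. In mice labelled Abca7 they numbered 2. A link between Irf1 and Ciita levels was not tested.

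Of 10 genes for invariant chain cleavage and antigen processing, 4 rose and 1 fell in control mice, and 3 rose and 1 fell in mice labelled Abca7 (7.92% and 5.18% of all genes were called as lower). Ifi30, the thiol reductase of the endosome, rose by 0.75 (SE 0.14; adjusted p = 0.000197) and 0.63 (SE 0.14; adjusted p = 0.00213). Sppl2a, the protease that clears the last Cd74 remnant from the membrane, rose by 0.45 (adjusted p = 4.13e-11) and 0.35 (7.20e-09). Ctsh, an aminopeptidase, changed by -0.47 (adjusted p = 0.000100) and -0.51 (4.80e-05). Ctsl, another lysosomal protease, rose by 0.15 and 0.12, and its calls ended with surrogate variables (adjusted p = 0.185 and 0.354) and, in control mice, with the Ttr level (0.062, adjusted p = 0.573). In mice labelled Abca7 the call of Ctsl also ended without the filter (adjusted p = 0.0749), with age (0.197), with the border macrophage level (0.119), with only the groups compared (0.0808), and without unstimulated replicate 1, 5 or 6 or LPS replicate 1 or 5 (adjusted p up to 0.120). The fourth gene to rise in control mice was Ctsb (0.098, adjusted p = 0.0292), and its call ended with the Ttr level (0.325), with surrogate variables (0.255), without the filter (0.0644) and without unstimulated replicate 2, 3 or 4 or LPS replicate 1 or 3 (up to 0.0871). Ctss, the main invariant chain protease of antigen-presenting cells, was not called (34.1 ± 1.47 to 36.7 ± 1.88 CPM, adjusted p = 0.137).

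Costimulatory molecules act beside class II on the cell surface. Of 8 genes for costimulation and turnover, 6 rose in each genotype label. Cd274, the inhibitory ligand PD-L1, rose by 4.86 and 4.32 on the log2 scale, Cd40 by 4.39 and 4.08, Cd86 by 1.73 and 1.48 and Icosl by 1.59 and 1.28, each with an adjusted p of at most 7.51e-07. Cd40, the receptor through which T cells license antigen-presenting cells, went from 0.34 ± 0.13 to 7.19 ± 0.95 CPM in control mice. Cd80 was called in both, and those calls ended with surrogate variables (adjusted p = 0.0873 and 0.136), in control mice with the Ttr level (0.0604), and in mice labelled Abca7 without LPS replicate 2 (0.0679) or 5 (0.0531). March1 and March8, ubiquitin ligases that remove class II and Cd86 from the surface, were not called.

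The class I counterparts rose without exception in edgeR's test: 9 of 9 in both genotype labels. Nlrc5, the class I coactivator, went from 0.91 ± 0.37 to 17.9 ± 2.85 CPM in control mice (log2 fold change 4.29, SE 0.27, adjusted p = 9.07e-13) and from 1.67 ± 1.20 to 15.99 ± 2.92 CPM in mice labelled Abca7 (3.31, SE 0.25). Tap1, a subunit of the peptide transporter, rose by 3.37 and 3.002, the immunoproteasome subunit Psmb8 by 2.53 and 2.27, and Psmb9 by 2.20 and 1.79. B2m rose 1.70-fold and 1.48-fold, and H2-K1 3.22-fold and 2.66-fold. The lowest rises of this list, 0.77 and 0.56 for B2m, compare with the highest of the class II members, 0.62 and 0.21 for Cd74.

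Ratios within libraries set a class II gene against its class I counterpart, for 3 pairs of genes, and the 6 exact permutation tests (two-sided, 6 against 6 libraries, smallest possible p 0.00216) were adjusted together. The log2 ratio of Ciita to Nlrc5 went from 2.05 ± 0.67 to -2.56 ± 0.26 (SD, n = 6) in control mice with LPS, a change of -4.61 with no overlap (exact permutation p = 0.00216, adjusted 0.00433). In mice labelled Abca7 it went from 1.38 ± 0.58 to -2.30 ± 0.26 (-3.67; exact permutation p = 0.00216, adjusted 0.00433). Per kilobase, Ciita stood above Nlrc5 without LPS (0.69 against 0.12 CPM per kilobase in control mice, 0.73 against 0.22 in mice labelled Abca7) and below it with LPS (0.57 against 2.34, and 0.61 against 2.09). The log2 ratio of H2-Ab1 to H2-K1 changed by -1.88 in control mice (from -4.06 ± 0.45 to -5.93 ± 0.19; exact permutation p = 0.00216, adjusted 0.00433) and by -1.43 in mice labelled Abca7 (exact permutation p = 0.00433, adjusted 0.00649).

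For Cd74 against B2m the change was smaller. In control mice it was -0.15, from -4.13 ± 0.17 to -4.28 ± 0.12, with overlap between the groups (exact permutation p = 0.123, adjusted 0.123). In mice labelled Abca7 it was -0.37, from -4.00 ± 0.28 to -4.37 ± 0.27 (exact permutation p = 0.0433, adjusted 0.0519). Neither passed after adjustment. A ratio shows unequal change of its genes and not which of them changed.

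**Figure D3:**
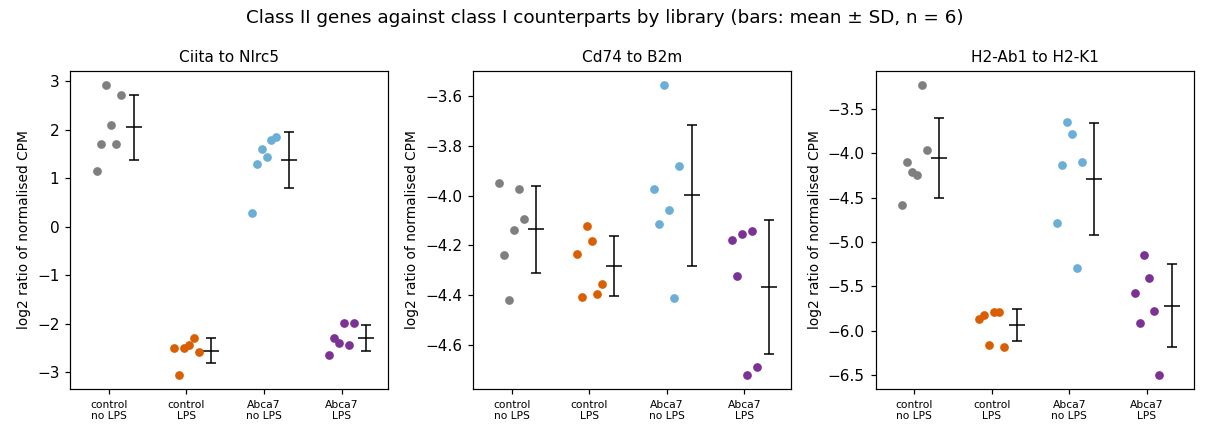
Log2 ratio of normalised CPM (y axis) of Ciita to Nlrc5, Cd74 to B2m and H2-Ab1 to H2-K1 in each library by group (x axis), with mean ± SD. Ciita to Nlrc5 lies above 0 in all 12 libraries without LPS and below 0 in all 12 with LPS; the groups overlap for Cd74 to B2m.

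Markers of cell types, those that could carry class II and others of the tissue, were summed per library and compared with exact permutation tests, 52 in all. The 9 microglial markers went from 270 to 281 CPM without LPS to 177 to 193 CPM with it in control mice (lowest and highest, exact permutation adjusted p = 0.0188), and all 9 were called as lower in both genotype labels. The 8 border macrophage markers went from a median of 15.3 CPM (13.2 to 18.1) to 11.9 CPM (8.93 to 14.1) in control mice (exact permutation adjusted p = 0.0375) and from 15.6 to 11.4 CPM in mice labelled Abca7 (exact permutation adjusted p = 0.0703). Of these 8, 3 and 2 were called as lower and 0 as higher; F13a1 changed by -0.97 and -0.98, and Cd163 by -0.77 and -0.70. Pf4, with 0.50 and 0.39 (adjusted p = 0.178 and 0.383), and Mrc1, with 0.14 and 0.029 (0.665 and 0.952), had estimates above 0 and were not called. With the border macrophage level as a covariate the Cd74 fold change in control mice was 0.65 on the log2 scale (adjusted p = 0.0231) and no other member was called.

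Monocyte markers rose in sum in control mice, from 30.0 to 31.9 CPM to 32.9 to 38.8 CPM (exact permutation adjusted p = 0.0188), and 4 of 6 were called as higher there and 2 of 6 in mice labelled Abca7, where the sum did not pass (exact permutation adjusted p = 0.195). The sum of 6 neutrophil markers rose from a median of 0.43 to 1.58 CPM in control mice (exact permutation adjusted p = 0.0188) and from 0.35 to 1.47 CPM in mice labelled Abca7 (0.0281); S100a8 and S100a9 passed the filter and were called as higher in both. The sum of 5 endothelial markers fell from 66.01 to 55.5 CPM and from 67.3 to 50.05 CPM (medians, exact permutation adjusted p = 0.0188 in each), with 4 called as lower and 1, Cdh5, as higher (1.41 and 1.13). Dendritic cell markers had 1 of 8 called as higher in both, Ccr7 (2.74 and 2.70), and 2 and 1 of 8 as lower, among them Clec10a (-1.58 and -0.89). The summed B cell list went from 16.2 to 21.7 CPM to 10.995 to 16.6 CPM in control mice (exact permutation adjusted p = 0.0281), with Ighm, the immunoglobulin heavy chain, at -0.44 (adjusted p = 0.00172), and that of T cells from 9.32 to 11.9 CPM to 9.67 to 13.4 CPM (0.308). Their defining genes were near 0 but none of a list was at 0 in every library: Ms4a1 held 120 counts over all 24 libraries and Cd3e 41, and 2 of 7 and 3 of 7 genes passed the filter. The choroid plexus list of 7 genes ranged from 15.8 to 302 CPM in control mice without LPS and from 191 to 548 CPM with it (exact permutation adjusted p = 0.0512). Its median in mice labelled Abca7 was 441 CPM without and 304 CPM with LPS. In edgeR's test of LPS, 5 of its 7 genes were called as higher in control mice and 0 in mice labelled Abca7. Of all genes, 9.39% and 6.65% were called as higher in these comparisons. The sums of meningeal fibroblast, cortical neuron, astrocyte and oligodendrocyte markers did not pass in any comparison (lowest exact permutation adjusted p = 0.0703). Single genes of these lists were called under LPS by edgeR, in control mice and in mice labelled Abca7 respectively. As lower these were 3 and 3 of 6 meningeal fibroblast markers and 2 and 1 of 6 cortical neuron markers. As higher they were 3 and 1 of 4 astrocyte markers, and 0 of 3 oligodendrocyte markers were called in either. The part of these cell types in the values of the members was not tested beyond the covariate fits given.

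Within groups, no pair of members had a correlation that passed after adjustment. Over 21 pairs, taken as deviations of log2 CPM from the group means over 24 libraries, the highest correlation was that of Cd74 with H2-Ab1 (r = 0.68, permutation p = 0.00384, adjusted 0.0806; rho = 0.60, permutation p = 0.00645, adjusted 0.120; r = 0.57 without the 2 libraries farthest from the median). Cd74 with H2-Eb1 followed (r = 0.51, permutation p = 0.0152, adjusted 0.107; rho = 0.50). The lowest was that of Ciita with H2-DMb1 (r = -0.51, permutation p = 0.0163, adjusted 0.107; rho = -0.50, r = -0.40 without the 2 libraries). Ciita with Cd74 had r = -0.18, and with H2-Ab1 r = -0.17.

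Of 31 further relations, of Cd74 and H2-Ab1 with the 13 marker lists, Ciita and Ttr and of Ciita with Dexi, none passed after adjustment. The highest was that of H2-Ab1 with the endothelial list (r = 0.60, permutation p = 0.0110, adjusted 0.341; rho = 0.56; r = 0.52 without the 2 libraries). Cd74 with Ttr had r = 0.16 (permutation p = 0.506, adjusted 0.819). Among 14938 genes with a mean of at least 1 log2 CPM, the 8 whose deviations were most like the mean of Cd74, H2-Aa, H2-Ab1 and H2-Eb1 over the 24 libraries were Ptp4a2 (r = 0.78), Psmb8 (0.73), Smarca5 (0.73), Pnrc2 (0.72), Nrp2 (0.71), Klhdc10 (0.70), Nnat (0.69) and D630008O14Rik (0.69). The 99th percentile of r over those genes was 0.57; the libraries share their depth and scaling, and these values are a description.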

How the data were processed

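The 7 members and the pathway and marker lists were chosen with earlier results of these data known. Per the series design text, MAP-RSeq 2.1.1 gave the gene counts, and the submitters' processing notes name STAR 2.5.2b and mm10. The annotation, the strand setting and the rule for reads with several matches are stated in no source used here. The authors deposited raw read counts per gene, with a length per gene in bases as another column. Genes were kept with filterByExpr by group (21891, holding at least 99.96% of each library's counts). All 24 libraries entered 1 fit with a coefficient per group, TMM factors and the quasi-likelihood F test of edgeR 4.0.16 (R 4.3.3), with p-values adjusted by Benjamini-Hochberg over the genes kept and called under 0.05; an adjusted p without a named tool is from this fit. Levels are CPM from TMM-scaled totals, and log2 CPM uses a prior count of 2. The SE is the absolute log2 fold change over the root of F.

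Named were all 7 members, at most 4 called genes per pathway list by size of change, and 8 genes most like the members; other genes were named after their values were seen, and some list genes are counted but not reported here by name. Symbols matched the table directly except March1 and March8, which were matched by GENCODE M21 identifier. Promoter stretches came from RefSeq (GRCm38.p6), with windows found for 4 of 7 members. Library titles carry distinct numbers, taken as those of animals, so each library was taken as 1 mouse. The fit was tested on simulated counts. Depth was 48149131 to 75741388 counts per library, and intervals cover no other source of error than the spread between libraries. Alternatives were RLE and upper-quartile scaling, no filter, a mean CPM of at least 1, DESeq2 1.42.0, limma-voom 3.58.1, age as a factor, Ttr or border macrophage level as a covariate, 4 surrogate variables (sva 3.50.0), only the groups compared, each library left out, and H2-DMb1 summed with H2-DMb2.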

Additional observations from a re-analysis of the deposited data

Results flagged for a closer look

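Among 40 sets of 6 libraries screened (7 members and 3 ratios in 4 groups), 3 held a library that stood apart by Dixon's criterion, and chance flags about 1 in 20 such sets. In control mice given LPS, the highest Ciita library had 3.64 CPM, with a gap to the next of 0.734 of the group's range. In the same group the highest H2-DMb1 library had 0.891 CPM, with a gap of 0.845 of the range. In mice labelled Abca7 without LPS, the lowest log2 ratio of Ciita to Nlrc5 was 0.284, with a gap of 0.643 of the range. That library is replicate 1, which also had the highest Ciita level of all 24 (5.003 CPM) and the highest Nlrc5 level of its group (4.10 CPM).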

How the results depend on the processing

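No member changed direction while called. Of 1238 fold changes of members under alternatives, 32 had another sign than reported, all of members that were not called. The count of members called under LPS in control mice, 1 as reported, was 0 with the Ttr level as a covariate, 0 with surrogate variables and 2 with only the groups compared, and 1 to 2 when single libraries were left out. In mice labelled Abca7 it was 0 to 1 when single libraries were left out. The count of all genes called in control mice fell to 1626 with the Ttr covariate and was 3201 to 4189 without single libraries. For the genotype difference without LPS, 7 genes as reported, the count was 31 with DESeq2, 49 with age, 3 with Ttr, 125 with surrogate variables, 3 with only the groups compared, and 2 to 38 without single libraries. Under LPS it was 37 with DESeq2, 1 with limma-voom, 2 with age, 3 with surrogate variables and 0 to 1 without single libraries. For the interaction it was 0 to 7. The Cd74 to B2m ratio changed by -0.21 to -0.11 in control mice without single libraries (exact permutation p from 0.0325 to 0.234) and by -0.45 to -0.28 in mice labelled Abca7 (0.00649 to 0.0974). The other 2 ratios stayed past the threshold in both labels in the alternatives run for ratios, a prior count of 0.5 and leaving out single libraries (unadjusted exact permutation p at most 0.00866). The cause of these shifts was not tested. No paired analysis was possible because replicate numbers only follow the order of the series. Low counts limit precision: H2-Ab1 had as few as 16 counts in a library and H2-DMb1 22.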
